A study of Mus musculus with 11 samples.

Results

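The 10 genes described here mark, or take part in, the alternative activation of mouse macrophages: Il4ra, Mrc1, Arg1, Retnla, Chil3, Egr2, Il10, Ccl24, Tgm2 and Folr2. They were taken by gene symbol from a table of 55487 genes, and all 10 were found in it. RNA was sequenced from bone marrow-derived macrophages, which are cells grown out of the marrow of C57BL/6J mice aged 2 to 5 months. The cells were differentiated for 5 to 6 days in medium with CMG-conditioned medium and then kept in the same kind of medium with less of it. The 4 CYR61 libraries came from macrophages given 0.5 µg/ml CYR61 for 24 h, and the 7 control libraries from macrophages that were not given it. CYR61 (CCN1) is a matricellular protein: cells release it into the matrix, where integrins recognise it. No mutation or other agent is named for either group. Neither a vehicle in the controls nor separate animals or cultures behind the libraries are stated, so each p-value sets the groups against the spread of libraries that may be technical repeats.

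Alternative activation is the state that macrophages take on when interleukin 4 or interleukin 13 binds a receptor containing the interleukin 4 receptor alpha chain. Janus kinases on the receptor then phosphorylate STAT6, which enters the nucleus and switches on a characteristic set of genes. In the mouse that set includes the arginine-degrading enzyme Arg1, the secreted proteins Retnla and Chil3, and the mannose receptor Mrc1. Interleukin 10, an anti-inflammatory cytokine, acts through a receptor of its own and STAT3, and raises the interleukin 4 receptor alpha chain in macrophages. The state is usually set against classical activation, in which interferon gamma or microbial products raise inflammatory cytokines and nitric oxide synthesis.

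RefSeq promoter windows on GRCm38.p6 were at hand for 6 of the 10 genes and were searched over the 250 bases before each start, on both strands. The motif TTCNNNNGAA, the spacing preferred by STAT6, was found in Retnla alone, with its first base at position -145 from the RefSeq start. The motif TTCNNNGAA, the spacing shared by most STAT proteins, was found in Chil3 alone, at position -172. The third motif, GCGTGGGCG, is the site bound by the zinc fingers of the EGR family and was found in none of the 6 genes. Over all 32851 windows, several of them from the same gene, 5.85% held the first motif, 7.02% the second and 0.536% the third. The sequences shown are those of the 3 genes whose levels passed the test below, Il4ra, Mrc1 and Egr2, and of the pair with a STAT motif. They are cut where the earlier of the RefSeq and GENCODE starts lies, and capitals mark a match to one of the STAT motifs. Retnla is from chr16:48842359-48842550 on the plus strand and Chil3 from chr3:106167565-106167814 on the minus strand. Il4ra is from chr7:125552021-125552119, Mrc1 from chr2:14229164-14229391 and Egr2 from chr10:67535249-67535474, all on the plus strand.
Retnla: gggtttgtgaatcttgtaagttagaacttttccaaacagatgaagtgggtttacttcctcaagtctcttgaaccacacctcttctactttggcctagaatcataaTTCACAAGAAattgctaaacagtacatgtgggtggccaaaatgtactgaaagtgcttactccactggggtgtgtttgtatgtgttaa
Chil3: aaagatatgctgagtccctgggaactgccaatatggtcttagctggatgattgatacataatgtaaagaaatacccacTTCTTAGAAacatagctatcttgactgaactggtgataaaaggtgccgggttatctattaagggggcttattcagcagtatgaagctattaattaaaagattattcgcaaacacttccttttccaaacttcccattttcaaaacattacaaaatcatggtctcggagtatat
Il4ra: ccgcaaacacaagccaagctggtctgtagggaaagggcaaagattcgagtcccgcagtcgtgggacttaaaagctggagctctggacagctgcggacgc
Mrc1: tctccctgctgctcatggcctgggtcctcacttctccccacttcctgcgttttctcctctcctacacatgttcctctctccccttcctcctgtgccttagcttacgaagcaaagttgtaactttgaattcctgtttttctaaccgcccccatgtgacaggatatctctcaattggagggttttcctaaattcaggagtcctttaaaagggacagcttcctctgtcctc
Egr2: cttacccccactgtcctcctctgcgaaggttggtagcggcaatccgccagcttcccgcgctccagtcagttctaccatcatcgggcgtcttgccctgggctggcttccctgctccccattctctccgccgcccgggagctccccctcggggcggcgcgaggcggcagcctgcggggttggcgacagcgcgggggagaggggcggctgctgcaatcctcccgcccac
A match describes the letters of a window and shows no binding. The deposited counts come without a stated build or annotation in the sources used here.

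The CYR61 libraries held 17390272 to 20760322 counts and the control libraries 14912123 to 21047654. Levels are CPM (reads per 1e6 counted) scaled with TMM factors, and folds come from the edgeR quasi-likelihood fit over all genes, with Benjamini-Hochberg adjustment and a threshold of 0.05. The labelled cell type fits its markers in that all 7 macrophage markers were tested. Their summed level, mostly Lyz2, was 24569 to 26788 CPM in CYR61 libraries and 22208 to 23596 CPM in control libraries. Of the 7, 5 rose, against 5.33% of all genes tested. Markers of cell types that can secrete interleukin 4 differed in level. The 6 mast cell and basophil markers summed to at most 0.166 CPM in CYR61 and 0.218 CPM in control libraries, and Fcer1a and Ms4a2 had no count. The 6 eosinophil markers summed to 2.55 to 3.28 CPM with CYR61 and 2.14 to 3.32 CPM in controls, mostly Siglecf and Ccr3; Il5ra and Prg3 had no count. Of the 8 lymphoid markers Cd3e, Cd3g, Nkg7 and Ncr1 had no count, and their sum, 79.8 to 91.3 CPM with CYR61 and 95.8 to 106 CPM in controls, was nearly all Il7r. Of the 5 B cell markers Pax5 had no count, and the sum, 45.4 to 49.6 CPM with CYR61 and 54.9 to 68.1 CPM in controls, was nearly all Ighm. The 4 monocyte markers summed to 49.6 to 60.3 CPM with CYR61 and 42.2 to 46.9 CPM in controls, with Plac8 at 0. The 10 neutrophil markers summed to 2.57 to 2.96 CPM with CYR61 and 1.47 to 2.46 CPM in controls, with Ly6g at 0. The 6 osteoclast markers summed to 32.1 to 35.4 CPM with CYR61 and 24.7 to 30.6 CPM in controls, with Calcr at 0. The 5 endothelial markers summed to 117 to 137 CPM with CYR61 and 144 to 157 CPM in controls, nearly all of it Vwf. The summed dendritic cell, fibroblast and erythroid markers had overlapping ranges: 1.33 to 2.05 CPM with CYR61 and 1.47 to 2.41 CPM in controls for the 7 dendritic cell markers, 0.822 to 1.63 and 0.545 to 1.64 CPM for the 6 fibroblast markers, and 2.88 to 3.95 and 3.04 to 4.01 CPM for the 6 erythroid and megakaryocyte markers. Of the other markers that were tested, 2 of 3 monocyte, 1 of 2 neutrophil, 1 of 2 eosinophil and 2 of 4 osteoclast markers were called higher. Over all genes tested 5.33% were higher. Called lower were 1 of 2 lymphoid, 1 of 1 B cell and 1 of 2 endothelial markers tested, against 2.63% of all genes tested. The rises included Ly6c2 (0.935 CPM with CYR61 and 0.0917 CPM in controls, edgeR adjusted p = 1.21e-05). Mmp9, an osteoclast marker, averaged 2.38 and 0.0931 CPM (edgeR adjusted p = 3.65e-06), and Ccr3 1.26 and 0.708 CPM (0.00957). Ly6c2 had 11, 28, 14 and 17 counts in CYR61 replicates 1 to 4 and 1 to 3 in the controls. Mmp9 had 21, 74, 54 and 28 counts in CYR61 replicates 1 to 4 and 0 to 3 in the controls. Both passed the low count filter of the fit only through the CYR61 libraries, so their calls could only be rises. The part of the cell type markers in the results below was not tested. In RNA of whole cultures, fewer cells of a type and less RNA per cell cannot be told apart.

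The receptor, Il4ra, and the mannose receptor, Mrc1, rose in CYR61-treated macrophages, and the transcription factor gene Egr2 fell. Tgm2, Folr2 and Il10 were expressed and did not pass the test. Arg1, Retnla, Chil3 and Ccl24 had at most 12 counts in any library. The low count filter kept 6 of the 10 genes, of which 2 were called higher, against 5.33% of all 15135 genes tested, and 1 was called lower, against 2.63%; in either direction it was 3, against 7.96%. Their median log2 fold change was 0.15, against -0.0076 for all genes tested. In 1 of the 6, Il4ra, every CYR61 library lay above every control, as in 4.65% of all genes tested; in 0 of the 6 did every CYR61 library lie below, against 2.50%, and either pattern was seen in 7.16%.

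**Figure D1:**
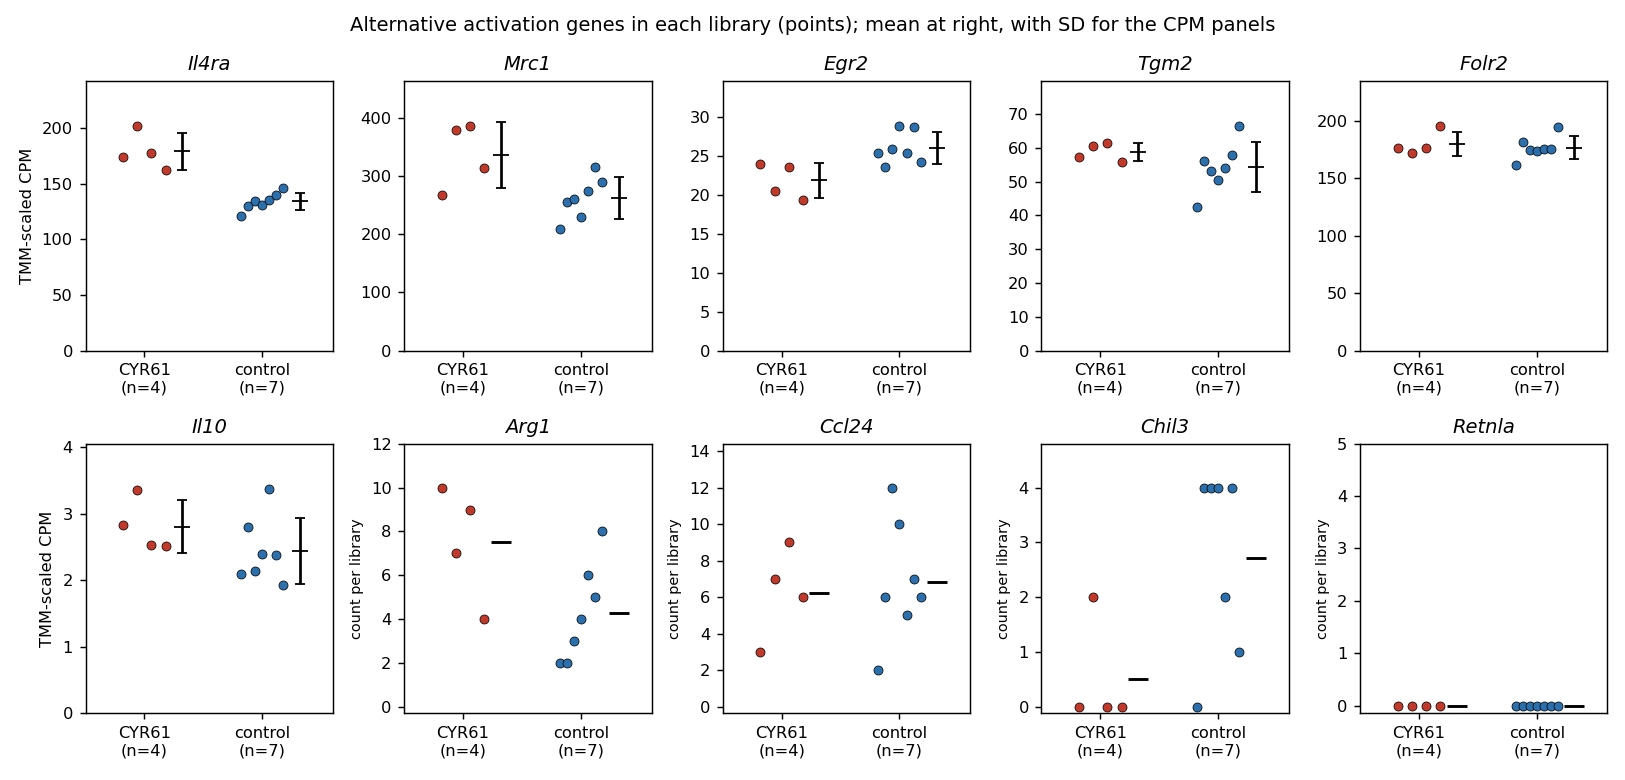
Level of each of the 10 genes in every library, CYR61 (n = 4) left of control (n = 7). Points are libraries; the y axis is TMM-scaled CPM, with mean and SD, for 6 genes and the rounded count per library, with the mean, for Arg1, Ccl24, Chil3 and Retnla. All 4 CYR61 libraries lie above all 7 controls for Il4ra, and Retnla is at 0 throughout.

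Il4ra encodes the alpha chain that binds interleukin 4 and is part of both the interleukin 4 and the interleukin 13 receptor. It was measured at 174, 202, 178 and 163 CPM in CYR61 replicates 1 to 4, and in the 7 controls at a lowest of 121, a median of 134 and a highest of 146 CPM. Every CYR61 library stood above every control library. The mean was 179 ± 16.5 CPM with CYR61 and 134 ± 7.88 CPM in controls (SD, n = 4 and n = 7), a 1.33-fold rise (log2 fold change 0.42 ± 0.052 SE, edgeR adjusted p = 4.84e-05). The call held in each of 20 alternative fits, with a log2 fold change of 0.35 to 0.47 and adjusted p from 1.78e-11 to 0.000271. An antisense gene, Gm44876, shares 571 exonic bases with Il4ra and averaged 0.103 CPM with CYR61 and 0.0311 CPM in controls.

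Mrc1, the mannose receptor CD206, takes up glycoproteins that end in mannose and is a standard surface marker of alternatively activated macrophages. It was measured at 267, 378, 386 and 314 CPM in CYR61 replicates 1 to 4, and in the controls at a lowest of 208, a median of 261 and a highest of 315 CPM. CYR61 replicates 2 and 3 stood above every control, replicate 4 was just under the highest control, and replicate 1 lay within the controls. The mean was 337 ± 56.2 CPM with CYR61 and 262 ± 35.7 CPM in controls, a 1.28-fold rise (log2 fold change 0.36 ± 0.10 SE, edgeR adjusted p = 0.0326). The call was lost with DESeq2 (its own adjusted p = 0.0693). In edgeR fits with the same adjustment as the main fit, the call was lost without CYR61 replicate 2 (adjusted p = 0.139) or 3 (0.140). It was also lost there without control replicate 2 (0.0540), 3 (0.0574) or 4 (0.0594). Scaling the counts only by library size also ended it (adjusted p = 0.0515), and the log2 fold change lay between 0.29 and 0.49 over 20 alternatives.

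Egr2, also named Krox-20, is a zinc finger transcription factor that interleukin 4 induces in mouse macrophages and that is used there as a marker of alternative activation. It was measured at 23.9, 20.5, 23.5 and 19.4 CPM in CYR61 replicates 1 to 4, and in the controls at a lowest of 23.5, a median of 25.4 and a highest of 28.8 CPM. CYR61 replicates 2 and 4 lay below every control, and replicates 1 and 3 lay at the lower end of the controls. The mean was 21.8 ± 2.23 CPM with CYR61 and 26.0 ± 2.05 CPM in controls, at 0.839 times control (log2 fold change -0.25 ± 0.070 SE, edgeR adjusted p = 0.0313). Without CYR61 replicate 2 or 4 the adjusted p was 0.125, and without control replicate 3, 4 or 6 it was 0.0509, 0.0602 and 0.0588, each from an edgeR fit with the same adjustment. With replicates 1 to 4 of both groups only, a choice made after seeing the data, it was 0.0605. The call was lost in 7 of 20 alternatives, over which the log2 fold change ran from -0.30 to -0.20.

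Tgm2, tissue transglutaminase, cross-links proteins and is induced by interleukin 4 in both human and mouse macrophages. It was measured at 57.3, 60.7, 61.5 and 55.7 CPM in CYR61 replicates 1 to 4, and in the controls at a lowest of 42.4, a median of 54.1 and a highest of 66.5 CPM. The CYR61 libraries lay within the range of the controls. The means were 58.8 ± 2.73 CPM with CYR61 and 54.4 ± 7.32 CPM in controls, which did not pass (log2 fold change 0.11 ± 0.078 SE, edgeR adjusted p = 0.491). Its deposited values were not whole in any of 11 libraries; Rprd1b, on the opposite strand, shares 370 exonic bases with it and averaged 25.1 CPM with CYR61 and 25.3 CPM in controls. Whether the libraries keep the strand is not stated, so reads of the overlap cannot be told apart.

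Folr2 encodes folate receptor beta, a folate-binding surface protein of tissue-resident and alternatively activated macrophages. It was measured at 176, 172, 176 and 196 CPM in CYR61 replicates 1 to 4, and in the controls at a lowest of 161, a median of 176 and a highest of 195 CPM. The groups lay on top of each other except that CYR61 replicate 4 was the highest of the 11. The means were 180 ± 10.6 CPM with CYR61 and 177 ± 10.1 CPM in controls (log2 fold change 0.025 ± 0.045 SE, edgeR adjusted p = 0.811). The sign of this small difference turned without CYR61 replicate 4 (log2 fold change -0.015) and with scaling by library size alone (-0.019). Its deposited values were not whole in any library either, and the antisense gene Gm10602, at 9.83 CPM with CYR61 and 9.71 CPM in controls, shares 975 exonic bases with it.

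Il10, the anti-inflammatory cytokine, was expressed at a low level. It had 51, 68, 43 and 46 counts in CYR61 replicates 1 to 4, or 2.83, 3.35, 2.52 and 2.51 CPM, and in the controls a lowest of 1.93, a median of 2.38 and a highest of 3.38 CPM. The CYR61 libraries lay within the range of the controls. The means of 2.80 ± 0.394 CPM with CYR61 and 2.45 ± 0.496 CPM in controls did not pass (log2 fold change 0.20 ± 0.16 SE, edgeR adjusted p = 0.534).

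The 4 remaining genes fell below the filter, so their counts are given. Arg1, which splits arginine into ornithine and urea, had 10, 7, 9 and 4 counts in CYR61 replicates 1 to 4, and 2, 2, 3, 4, 6, 5 and 8 counts in control replicates 1 to 7. The CYR61 libraries tended to the upper end, and the groups overlapped. In CPM the means were 0.412 ± 0.159 with CYR61 and 0.225 ± 0.104 in controls (exact permutation test, two-sided, all 330 splits: p = 0.0455, not adjusted and 1 of 3 such tests). The smallest p that this test can give is 0.00303. On raw counts the exact permutation p was 0.0697, and in an edgeR fit of all 28525 genes without the filter the adjusted p was 0.408.

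Chil3, the chitinase-like lectin Ym1, had 0, 2, 0 and 0 counts in CYR61 replicates 1 to 4, and 0, 4, 4, 4, 2, 4 and 1 counts in control replicates 1 to 7. No CYR61 library and only 4 controls exceeded 3 counts, the limit that a count of 0 allows, and the exact permutation p on CPM was 0.0576. The sums were 2 counts with CYR61 and 19 in controls. In the edgeR fit of all 28525 genes the adjusted p was 0.253, from an unadjusted 0.0238, and the unadjusted DESeq2 value was 0.0551. Retnla, the resistin-like secreted protein also called FIZZ1, had no count in any of the 11 libraries. Counts of 0 allow a level of up to 0.145 to 0.173 CPM in a CYR61 library and 0.143 to 0.201 CPM in a control library, counting error only. Ccl24, the eosinophil-attracting chemokine eotaxin-2, had 3, 7, 9 and 6 counts in CYR61 replicates 1 to 4, and 2, 6, 12, 10, 5, 7 and 6 counts in control replicates 1 to 7. Its groups overlapped throughout, with means of 0.342 ± 0.148 CPM with CYR61 and 0.365 ± 0.182 CPM in controls (exact permutation p = 0.827). At this depth the difference in Chil3 did not pass adjustment, and none was detectable for Ccl24 or Retnla.

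Levels were compared between genes per kilobase of merged exons in GENCODE M21, an annotation that may not be the one behind the counts. In this CPM per kilobase, Folr2 was highest, at 116 ± 6.88 with CYR61 and 114 ± 6.54 in controls. Mrc1 followed, at 52.8 ± 8.83 with CYR61 and 41.1 ± 5.60 in controls, and then Il4ra, at 29.8 ± 2.76 and 22.4 ± 1.31 CPM per kilobase in CYR61 and control libraries. Tgm2 stood at 12.8 ± 0.593 with CYR61 and 11.8 ± 1.59 in controls, Egr2 at 6.42 ± 0.656 and 7.64 ± 0.603, and Il10 at 2.14 ± 0.301 and 1.87 ± 0.379 CPM per kilobase, CYR61 before control. The control ranges of neighbours in this order did not overlap down to Il10. Below it, Ccl24 at 0.264 with CYR61 and 0.282 in controls, Arg1 at 0.185 and 0.101, and Chil3 at 0.0151 and 0.0873 CPM per kilobase had overlapping control ranges.

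Il4ra works together with other chains, so a list of 16 genes of interleukin 4 and interleukin 13 signalling, Il4ra left out, was examined. Of the 12 that were tested, 4 rose, none fell and 8 did not pass, and the list's median log2 fold change was 0.11. Over all genes tested 5.33% were higher and 2.63% lower. The 4 that rose were a pair of receptor chains, a kinase and a phosphatase. Il2rg, the common gamma chain that pairs with Il4ra in the type I receptor, was measured at 45.4, 61.9, 55.5 and 53.5 CPM in CYR61 replicates 1 to 4, and at 29.7 to 32.5 CPM in the controls, with a median of 31.2 CPM. It rose 1.73-fold, all CYR61 libraries above all controls (log2 fold change 0.79 ± 0.061 SE, edgeR adjusted p = 2.21e-07). Jak3, the kinase that binds the common gamma chain, was measured at 34.0, 38.2, 35.7 and 28.7 CPM in CYR61 replicates 1 to 4, and at 19.2 to 23.8 CPM in the controls, with a median of 21.8 CPM. It rose 1.57-fold, again without overlap (log2 fold change 0.65 ± 0.068 SE, edgeR adjusted p = 7.82e-06).

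Il13ra1, the chain that pairs with Il4ra in the type II receptor, was measured at 6.43, 8.14, 7.75 and 6.93 CPM in CYR61 replicates 1 to 4, and at 4.72 to 6.06 CPM in the controls, with a median of 5.88 CPM. It rose 1.31-fold without overlap (edgeR adjusted p = 0.0152), a call lost without CYR61 replicate 2 (adjusted p = 0.0806) or 3 (adjusted p = 0.0575). Ptpn6, the phosphatase SHP-1 that dampens cytokine receptor signalling, averaged 282 ± 4.68 CPM with CYR61 and 254 ± 8.15 CPM in controls and rose 1.11-fold (edgeR adjusted p = 0.00343). The signal transducer itself, Stat6, was measured at 217 ± 0.808 CPM with CYR61 and 210 ± 4.20 CPM in controls. All 4 of its CYR61 libraries lay above all controls, and the difference did not pass (log2 fold change 0.044 ± 0.027 SE, edgeR adjusted p = 0.390). Jak1 and Tyk2, the other kinases of these receptors, had log2 fold changes of 0.068 and 0.067 that did not pass (adjusted p = 0.265 and 0.215). Of the ligands, Il4 had 4, 13, 5 and 2 counts in CYR61 replicates 1 to 4 and 0 to 9 counts in the controls, and Il13 had at most 1 count with CYR61 and 2 in controls; both were below the filter.

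**Figure D2:**
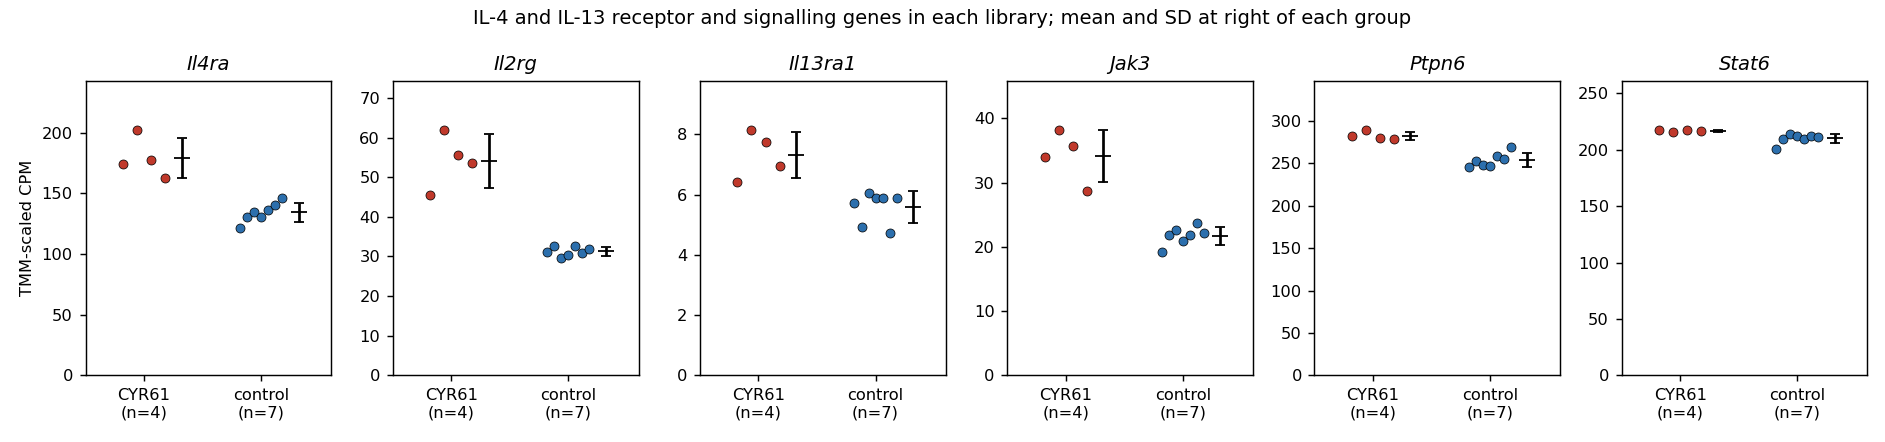
TMM-scaled CPM of Il4ra and of 5 other genes of interleukin 4 and interleukin 13 signalling in every library, CYR61 (n = 4) left of control (n = 7), with mean and SD. The panels are Il4ra, the genes of the list that were called higher, and Stat6. The CYR61 libraries lie above the controls in all 6 panels, a pattern seen in 4.65% of all genes tested. The panels were chosen after their values were seen, so this describes the chosen genes and not the list. Of the 12 tested genes of the list, 8 did not pass, and Jak1 and Tyk2 among them, not shown, had overlapping groups. The difference is 1.73-fold for Il2rg and did not pass for Stat6.

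Transcription factors linked to alternative activation moved in both directions. Of 19 listed regulators, all tested, 3 rose, 4 fell and 12 did not pass, with a median log2 fold change of -0.021. Of all genes tested, 5.33% rose and 2.63% fell. Those that rose included Stat3 (218 ± 5.73 CPM with CYR61 and 180 ± 4.69 CPM in controls, edgeR adjusted p = 8.91e-06) and Cebpb, which drives Arg1 in mouse macrophages (181 ± 22.2 and 153 ± 5.03 CPM in CYR61 and control libraries, edgeR adjusted p = 0.0081). Among those that fell was Pparg, the lipid-sensing nuclear receptor needed for full alternative activation in mice, at 13.9 ± 1.05 CPM with CYR61 and 17.2 ± 1.08 CPM in controls (edgeR adjusted p = 0.00466). Bhlhe40 fell to 33.6 ± 2.22 CPM with CYR61, against 40.8 ± 1.36 CPM in controls (edgeR adjusted p = 0.000398), and Nr4a1 and Egr3 were the others. Egr3, a relative of Egr2, averaged 0.566 CPM with CYR61 and 1.11 CPM in controls (log2 fold change -0.98, edgeR adjusted p = 0.0336). That call was lost without CYR61 replicate 1, 3 or 4 and without control replicate 2 or 6. Egr1 averaged 12.4 ± 0.674 and 14.8 ± 4.17 CPM in CYR61 and control libraries, which did not pass (adjusted p = 0.396). Irf4 and Klf4, a pair of factors that act with STAT6, stood at 3.43 and 34.1 CPM with CYR61 and at 4.06 and 33.5 CPM in controls, and neither passed (adjusted p = 0.289 and 0.848).

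Of 30 other genes linked to interleukin 4, 29 were in the table and 18 were tested. Of these, 2 rose, 7 fell and 9 did not pass, beside 5.33% higher and 2.63% lower over all genes tested. Their median log2 fold change was -0.11. The transferrin receptor gene Tfrc rose to 151 ± 18.8 CPM with CYR61, against 110 ± 5.67 CPM in controls (edgeR adjusted p = 7.98e-05), and the cationic amino acid transporter gene Slc7a2 was the other. The 7 that fell were Plk2, Atp6v0d2, Cd83, Cd163, P2ry1, Clec7a and Matk. Cd163 is also on the list of resident macrophage markers. Whether interleukin 4 raises each listed gene in these cells was not tested. Plk2, a kinase gene, averaged 30.7 ± 1.82 CPM with CYR61 and 38.4 ± 1.87 CPM in controls (edgeR adjusted p = 0.000237). Atp6v0d2, a subunit of the vacuolar proton pump, averaged 53.9 ± 1.68 CPM with CYR61 and 64.2 ± 3.59 CPM in controls (edgeR adjusted p = 0.000781). Cd83, a surface protein of activated antigen-presenting cells, averaged 11.03 ± 0.816 and 14.8 ± 1.61 CPM in CYR61 and control libraries (edgeR adjusted p = 0.00259). The interleukin 4-induced chemokine genes Ccl17 and Ccl22, the chitinase-like Chil4 and the lectin gene Mgl2 were below the filter.

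Around Arg1, of 17 listed genes of arginine and polyamine metabolism 16 were tested; 2 rose, 0 fell and 14 did not pass, with a median log2 fold change of 0.031. With 7.96% of all genes tested called in either direction, 2 of 16 is near the background. Ass1, which makes the precursor of arginine from citrulline, was measured at 9.26, 13.96, 13.85 and 10.21 CPM in CYR61 replicates 1 to 4, and at 4.26 to 5.81 CPM in the controls, with a median of 5.10 CPM. It rose 2.34-fold without overlap (log2 fold change 1.23 ± 0.12 SE, edgeR adjusted p = 3.24e-06). Slc7a2, which carries arginine into macrophages, rose 1.44-fold, to 8.18 ± 0.587 CPM with CYR61 against 5.66 ± 1.13 CPM in controls (edgeR adjusted p = 0.0124), a call lost without CYR61 replicate 3 (adjusted p = 0.0502). The number of these genes that rose was 1 without CYR61 replicate 3 and 4 without control replicate 6. Srm, spermidine synthase, and Oat, ornithine aminotransferase, averaged 6.56 and 56.3 CPM with CYR61 and 5.55 and 52.2 CPM in controls, neither passing (edgeR adjusted p = 0.0850 and 0.102).

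Genes of interleukin 10 signalling included several that are known STAT3 targets, and of 13 listed and tested, 5 rose, against 5.33% of all genes tested, 0 fell and 8 did not pass. Their median log2 fold change was 0.13. Socs3, the feedback inhibitor induced through STAT3, was measured at 12.97, 18.8, 16.1 and 12.2 CPM in CYR61 replicates 1 to 4, and at 4.31 to 6.15 CPM in the controls. It rose 2.83-fold (edgeR adjusted p = 1.99e-07). Bcl3, an NF-kB cofactor, rose (log2 fold change 0.58, 37.0 ± 5.85 CPM with CYR61 and 24.8 ± 1.63 CPM in controls, edgeR adjusted p = 8.87e-05), and Sbno2, a transcriptional coregulator, rose 1.21-fold (260 ± 14.9 and 215 ± 6.89 CPM in CYR61 and control libraries, edgeR adjusted p = 8.2e-05). Stat3 and the repressor gene Etv3 were the others. These genes also respond to other cytokines that act through STAT3. The receptor chain genes Il10ra and Il10rb, at 209 and 166 CPM with CYR61 and 203 and 161 CPM in controls, did not pass (adjusted p = 0.482 and 0.633).

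Markers of tissue-resident macrophages, the setting in which Folr2 is best known, showed 4 rises and 1 fall among 15 tested of 20 listed, with 10 not passing and a median log2 fold change of 0.085, where 5.33% of all genes tested rose and 2.63% fell. The rises were the complement genes C1qa, C1qb and C1qc and the chemokine gene Pf4. C1qa averaged 443 ± 27.2 CPM with CYR61 and 322 ± 40.4 CPM in controls (edgeR adjusted p = 0.000482), C1qb 1362 ± 73.0 and 1071 ± 106 CPM in CYR61 and control libraries (edgeR adjusted p = 0.00116), and Pf4 7.54 ± 0.816 and 4.20 ± 1.15 CPM (edgeR adjusted p = 0.00272). The fall was that of Cd163, a haemoglobin scavenger receptor, at 14.7 ± 1.53 CPM with CYR61 and 18.6 ± 1.32 CPM in controls (edgeR adjusted p = 0.00444). The defining resident markers Timd4, Cd209f and Clec4f had no count, and Lyve1 had none in controls.

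Relatives of the 10 genes within their families, listed together with Il4i1, were mostly below the filter. Of 28 listed, 10 were tested, 0 rose, 1 (Egr3) fell and 9 did not pass, with a median log2 fold change of -0.16. With 7.96% of all genes tested called in either direction, 1 of 10 is near the background. The resistin-like gene Retnlb, the chitinase-like gene Chil4 and the eotaxin genes Ccl11 and Ccl26 had no count. Folr1, the alpha folate receptor, stood at 1.42 ± 0.198 CPM with CYR61 and 1.98 ± 0.445 CPM in controls (edgeR adjusted p = 0.167). F13a1, the transglutaminase of blood clotting, stood at 21.4 ± 1.95 CPM with CYR61 and 19.5 ± 2.01 CPM in controls (edgeR adjusted p = 0.377). Il4i1 is an interleukin 4-induced amino acid oxidase outside these families. It stood at 1.147 ± 0.614 and 1.56 ± 0.357 CPM in CYR61 and control libraries (edgeR adjusted p = 0.440).

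In a list of 20 genes of classical activation, 8 were below the filter and 12 were tested; 5 rose, against 5.33% of all genes tested, 0 fell and 7 did not pass, with a median log2 fold change of 0.27. The largest change among the 6 tested alternative activation genes was a 1.33-fold rise, that of Il4ra; the 5 classical genes that rose, Saa3, Marco, Ccl5, Socs3 and Acod1, stood at 26.9, 5.49, 3.52, 2.83 and 3.13 times control. The inflammatory cytokine gene Tnf stood at 11.1 ± 2.02 CPM with CYR61 and 10.9 ± 1.22 CPM in controls and did not pass (edgeR adjusted p = 0.933). Nos2, the inducible nitric oxide synthase, had 2 to 3 counts per library with CYR61 and 0 to 7 in controls, Il6 had at most 1 count in either group, and Il12b had none. Il1b, also below the filter, had 14, 16, 12 and 2 counts in CYR61 replicates 1 to 4 and 1 to 5 counts in the controls. The difference between the lists was not tested. The lists were chosen with earlier results of these data known, so their counts and folds are a description. The lists share genes, 16 of which stand in more than 1 list.

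**Figure D3:**
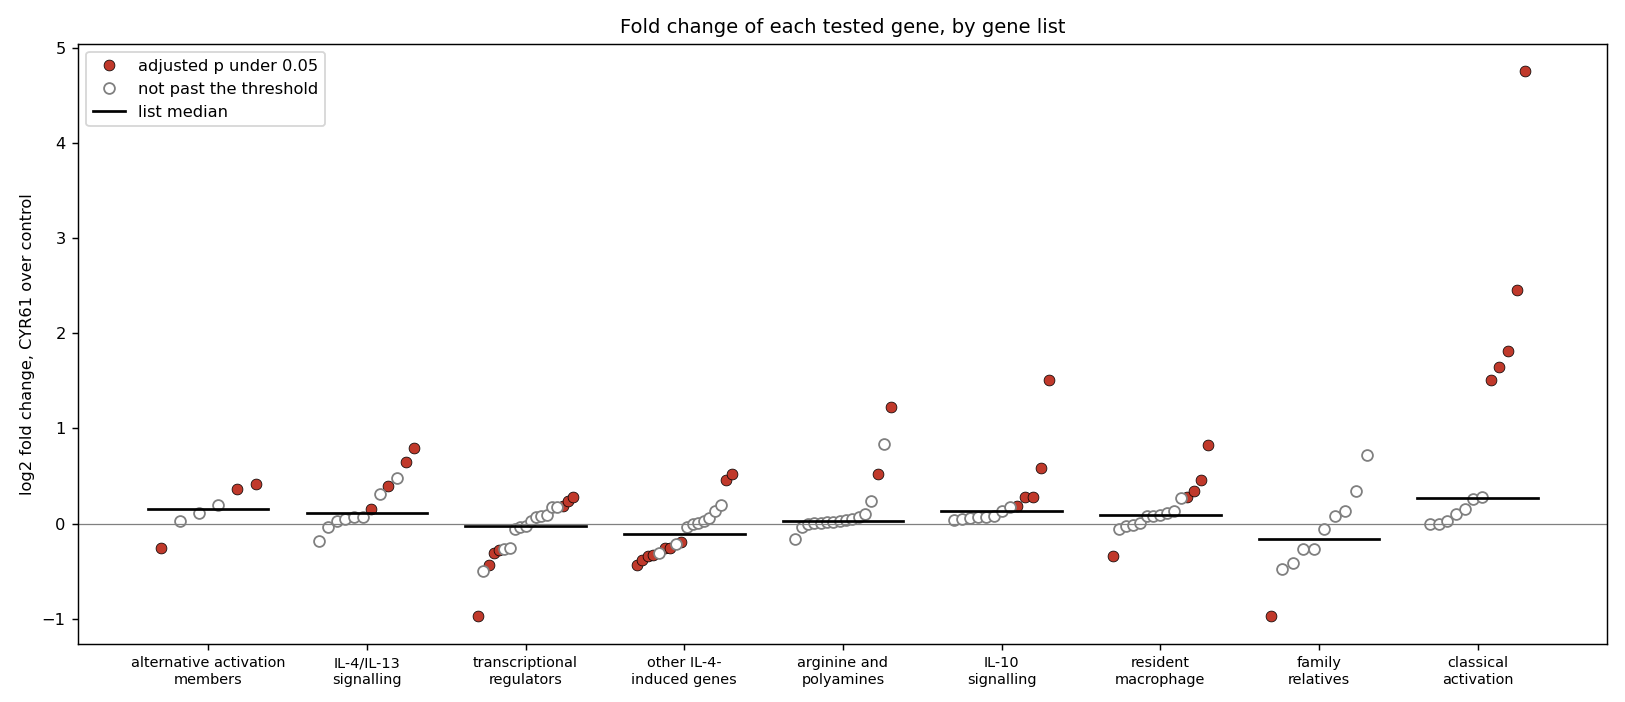
Log2 fold change, CYR61 over control, of every tested gene of the 10 and of the 8 lists set around them. Filled points passed an adjusted p of 0.05, open points did not, and lines are list medians, which run from -0.16 for family relatives to 0.27 for classical activation.

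Over the 13350 genes averaging 1 CPM or more, those nearest in pattern to each called gene were found by the root mean square difference in centred log2 CPM over the 11 libraries. Il4ra itself varied by 0.22 log2 units about its mean, and its nearest genes were Ap1b1 (0.0402 log2 units away), Ptpn1 (0.0452) and Cd52 (0.0508). Mrc1 varied by 0.26 log2 units, and its nearest genes were Dab2 (0.0695), Wfdc17 (0.0853) and Tmem8 (0.0938). Egr2 varied by 0.17 log2 units, and its nearest genes were Trit1 (0.0788), Tm4sf19 (0.0807) and Ckap2 (0.0836). The libraries, their depth and the treatment are shared by all of these genes, so the distances are a description.

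**Figure D4:**
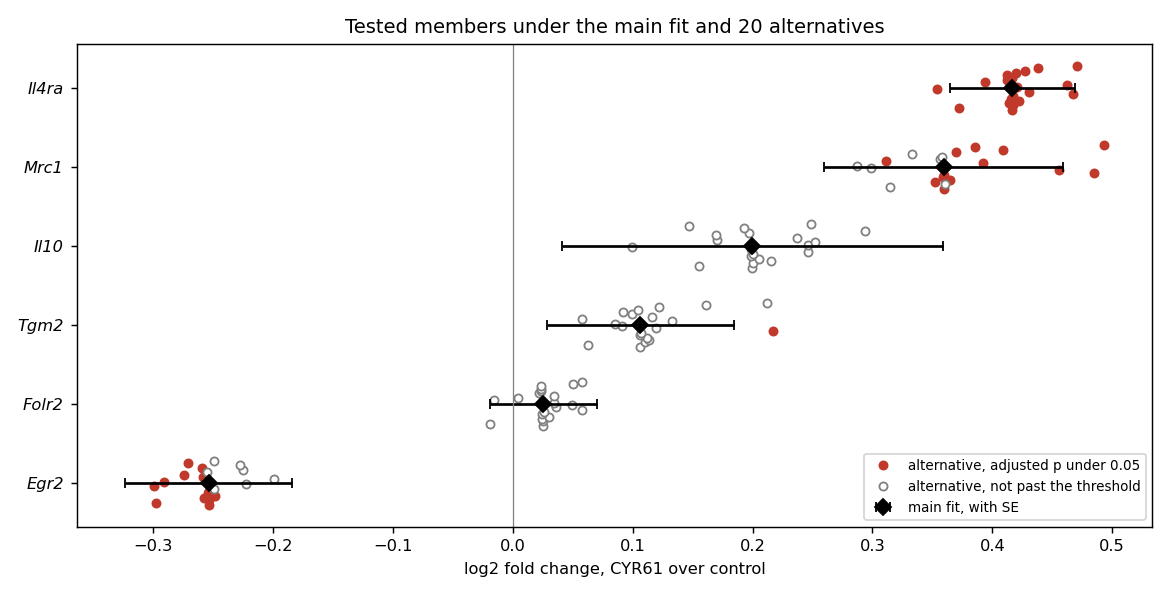
Log2 fold change, CYR61 over control, of the 6 tested genes: black diamonds with SE are the values given above, and circles are 20 alternative fits, filled where adjusted p was under 0.05. Il4ra is filled in all 20, while Mrc1 and Egr2 each lose the call in 7.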

How the data were processed

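Per the labels' protocols, ribosomal RNA was depleted from total RNA, cDNA was primed with random hexamers, and reads were paired; strand is not stated. DRAGEN is named in the submitters' processing notes; its version, role and genome build: not given in the sources used here. As count data, the authors deposited expected counts (estimated counts) per Ensembl gene, not normalized, with 1 column per library. They also deposited a table of their own comparison, with log2 fold changes and log2 values per library, p-values and scores (moderated t, log odds, linear fold); its values for these genes are quoted only as the authors'. Of 55774 rows, 287 repeated an ID with the same values and were dropped, and no per-sample column was without a sample.

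Counts were rounded to whole numbers and analysed in R 4.3.3 with edgeR 4.0.16: filterByExpr, TMM factors, glmQLFit and glmQLFTest over all 11 libraries without covariates, two-sided, with Benjamini-Hochberg adjustment over 15135 genes. SE is the log2 fold change divided by the square root of its F. Genes below the filter with at least 4 counts in a library were compared by exact permutation of CPM over 330 splits. The fit was tested on simulated data. Alternatives were DESeq2 1.42.0, limma-voom (limma 3.58.1), RLE factors, library size alone, no filter, a floor of 1 CPM on the mean, removal of mitochondrial and rRNA genes, a block for the replicate number and leaving out each library; replicates 1 to 4 without the block was added after seeing the data. The 10 genes, the gene lists and the marker lists of 12 cell types were chosen with earlier results of these data known. Named are all 10 genes, per list up to 4 tested genes of lowest p that average 1 CPM or more, and the 3 genes nearest in pattern to each called gene; others were chosen after their values were seen. Promoter sequences are from RefSeq on GRCm38.p6, and gene models from GENCODE M21. A few genes of the lists are not reported here by name.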

Additional observations from a re-analysis of the deposited data

Results flagged for a closer look

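In 3 of 96 gene and group combinations, 1 library lay farther from the rest of its group than Dixon's 95% criterion allows. Chance alone flags about 1 in 20 such groups, or 4.8 of 96. Chil3 stood at 0.0986 CPM in CYR61 replicate 2, from 2 counts, and at 0 in the other CYR61 libraries. Bcl3 stood at 28.1 CPM in control replicate 1, above the next control at 25.0 CPM. Ckap2 stood at 27.3 CPM in control replicate 4, above the next control at 24.4 CPM. Of the 10 alternative activation genes, Chil3 was the only one with such a library.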

How the results depend on the processing

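Scaling by library size alone gave 529 higher and 938 lower genes, in place of 806 and 398, left 1 alternative activation gene higher in place of 2 (Mrc1 at log2 fold change 0.31, no longer passing) and turned Folr2 to -0.019; 36.1% of the called genes were then higher, in place of 66.9%. The TMM factors themselves did not overlap, at 0.971 to 0.993 in CYR61 libraries and 1.004 to 1.023 in controls. Their exact permutation p was 0.00303, the smallest that this test can give. With library size alone the median log2 fold change was -0.0523, in place of -0.0076. DESeq2 left 1 gene higher (Mrc1 at 0.36, not passing). Limma-voom called 1 family relative higher. With a mean of at least 1 CPM, 0 family relatives were called lower, because Egr3 (0.566 CPM with CYR61 and 1.11 CPM in controls) fell under that floor. On raw counts the exact permutation p of Arg1 was 0.0697.

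Replicates 1 to 4 share only a number: the deviations of same-numbered libraries correlated at -0.039 to 0.042 over 15135 genes. With the replicate block, 811 genes were higher and 450 lower, 0 of the 10 genes were lower (Egr2 at -0.25, not passing), and Tgm2 passed at 0.22. Il13ra1 lost its call under the block (0.38, edgeR adjusted p = 0.0712). The block called 2 regulators and 1 arginine gene lower, 7 resident macrophage genes higher and 0 family relatives lower, and Egr1 stood at 0.063. The same 8 libraries without the block gave Egr2 at -0.25, not passing, 0 of the 10 genes lower, 2 regulators lower, 4 arginine genes higher and 1 lower, 0 family relatives lower, and Egr1 at 0.051.

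Leaving out 1 library at a time gave 205 to 469 lower genes, the fewest without CYR61 replicate 2, with 1 to 2 of the 10 genes higher and 0 to 1 lower. Mrc1 lay at 0.29 to 0.46, Egr2 at -0.30 to -0.20 and Folr2 at -0.015 to 0.050. Other genes linked to interleukin 4 gave 1 to 3 rises, arginine genes 1 to 4 rises and family relatives 0 to 1 falls. Il4ra kept its call in all 20 alternatives; the causes of the changes were not tested. Depth limits Arg1, Chil3, Ccl24 and Retnla, whose counts were 12 or fewer.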

Other observations

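The authors' deposited table gave values for 6 of the 10 genes. In the authors' deposited table Il4ra had a log2 fold change of 0.43 (adjusted p = 1.03e-07), Mrc1 of 0.41 (adjusted p = 0.00781) and Egr2 of -0.27 (adjusted p = 0.024). By the authors' deposited table the other 3 did not pass, with Tgm2 at 0.12 (adjusted p = 0.211), Il10 at 0.16 (adjusted p = 0.619) and Folr2 at 0.025 (adjusted p = 0.795).

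CYR61 replicate 4 had 2.47% of its counts on ribosomal RNA genes, against 0.26 to 0.884% elsewhere. Without that library the log2 fold change of Il4ra was 0.46, that of Mrc1 0.39 and that of Egr2 -0.20, the last not passing (edgeR, adjusted p = 0.125).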
